A study of Homo sapiens with 24 samples.

Results

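The 10 genes described here are the core proteins that write, read and erase N6-methyladenosine (m6A), the most common internal modification of mRNA. They are the writers METTL3, METTL14 and WTAP, the readers YTHDF1, YTHDF2, YTHDF3, YTHDC1 and YTHDC2, and the erasers ALKBH5 and FTO. They were chosen by symbol, and all 10 were found in each table among 58174 listed genes. Their transcripts were measured by sequencing of total RNA in 4 cancer-derived human lines. Each line received either a control siRNA modelled on a nematode miRNA (siC) or an siRNA pool that targets IGF2BP1 (siI1), with 3 libraries per group and 24 libraries in 8 groups. IGF2BP1 and its paralogs are themselves m6A readers, so the comparison asks how transcripts of the remaining m6A proteins behave when one reader is lowered. A549 is labelled as a lung cancer line, ES2 as an ovarian cancer line, MV3 as a melanoma line and PANC1 as a pancreas cancer line. All groups were grown in the same medium and carried a transfected siRNA. In A549, ES2 and MV3 the cells were harvested 72 h after transfection, in PANC1 after 96 h, so line and harvest time cannot be told apart for PANC1.

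METTL3 is the catalytic subunit of the methyltransferase, METTL14 is its partner that holds the RNA, and WTAP carries the pair to nuclear speckles together with further subunits. YTHDF1 to YTHDF3 bind methylated mRNA in the cytoplasm and are known for effects on its decay and translation. YTHDC1 binds methylated RNA in the nucleus, and YTHDC2 is an RNA helicase best known from meiosis. ALKBH5 and FTO are oxygenases that remove the mark. IGF2BP proteins are known to stabilise many of the mRNAs that they bind.

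Values are FPKM, in which fragments are divided by the gene length given in the table and by a size set for each library. In PANC1 this size was not always the plain count of reads assigned to genes. The libraries held 3105215 (A549) to 20082702 (MV3) reads assigned to genes, with the fewest in A549. Each line was scaled on its own, so fold changes within a line can be set side by side but levels in different lines cannot be tested against each other. In the siC libraries IGF2BP1 lay between 39.6 and 39.8 FPKM in A549, and knockdown left 15.2 to 16.4 FPKM. The mean fell by 60.6% in A549 and fell by 75.1% in PANC1, with ES2 and MV3 between them, so the siI1 groups retained part of the transcript. Epithelial CDH1 was found at 18.02 to 18.9 FPKM in A549 siC libraries and at 4.03 to 4.83 FPKM in PANC1, while it was listed at 0 in all ES2 siC libraries. There EPCAM and KRT19 were also at 0, but the epithelial keratins KRT8 and KRT18 lay at 8.72 to 9.52 and 41.9 to 47.4 FPKM. The melanocyte factor SOX10 was listed at 0 and MITF lay at 0.296 to 0.337 FPKM in MV3, the lung factor NKX2-1 was listed at 0 in A549 and PAX8, a factor of the Muellerian tract, lay at 0.0618 to 0.262 FPKM in ES2. Of the pancreatic ductal markers in PANC1, SOX9 lay at 16.9 to 20.3 FPKM, KRT7 at 2.34 to 3.59 FPKM and CFTR at 0 to 0.0326 FPKM. The tissue of origin of the 4 lines thus rests on their labels. ES2 siC libraries also held the endothelial cadherin CDH5 at 8.32 to 10.9 FPKM, while PECAM1, also endothelial, lay at 0.268 to 0.393 FPKM. The leukocyte marker PTPRC was at or near 0 in all lines. A bulk value does not tell fewer cells with a transcript from less transcript per cell.

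Of the 10 genes, 9 have promoter windows in the RefSeq table used here, 11 windows in all, each from 250 bases before to 50 bases after a gene start on GRCh38.p14. The 3 printed here belong to METTL3 and FTO, whose transcripts were lower in every siI1 library of every line, and to METTL14, the partner of METTL3, for which this was not so. WTAP was also lower in every siI1 library of every line, but its 2 windows are not printed. Capitals mark matches, on either strand, to the letters CCGGAA (the ETS core), AANATGGC (YY1) and GCATGCGC (NRF1), which do not overlap in these windows. The motifs were chosen after the sequences had been seen.
METTL3, chr14:21511291-21511590, minus strand: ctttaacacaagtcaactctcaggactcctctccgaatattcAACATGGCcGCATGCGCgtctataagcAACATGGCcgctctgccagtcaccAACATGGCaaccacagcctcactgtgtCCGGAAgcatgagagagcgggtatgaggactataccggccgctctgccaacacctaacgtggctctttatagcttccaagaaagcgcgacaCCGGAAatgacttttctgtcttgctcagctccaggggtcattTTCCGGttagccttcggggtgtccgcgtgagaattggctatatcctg
METTL14, chr4:118685142-118685441, plus strand: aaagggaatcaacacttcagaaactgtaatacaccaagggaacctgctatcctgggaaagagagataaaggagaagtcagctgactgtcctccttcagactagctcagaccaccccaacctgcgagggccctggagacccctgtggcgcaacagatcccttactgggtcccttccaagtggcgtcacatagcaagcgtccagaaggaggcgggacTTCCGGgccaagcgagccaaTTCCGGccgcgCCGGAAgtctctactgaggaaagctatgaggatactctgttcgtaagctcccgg
FTO, chr16:53703906-53704205, plus strand: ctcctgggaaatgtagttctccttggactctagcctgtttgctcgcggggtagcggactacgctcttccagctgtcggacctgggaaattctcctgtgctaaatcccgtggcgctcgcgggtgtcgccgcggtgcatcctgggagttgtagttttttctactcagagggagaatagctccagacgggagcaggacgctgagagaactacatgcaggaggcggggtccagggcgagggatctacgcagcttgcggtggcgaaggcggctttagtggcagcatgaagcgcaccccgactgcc
The METTL3 window held 3 ETS, 3 YY1 and 1 NRF1 matches, the METTL14 window 3 ETS matches, and the FTO window no match to any of the 3. Of the other windows, 1 of the 2 for WTAP held 2 YY1 matches and that of ALKBH5 held 1 NRF1 match. Over all 35116 promoter windows of the table, 17.2% held the ETS letters, 6.58% the YY1 letters and 3.05% the NRF1 letters. Among the 11190 windows that belong to protein-coding genes with a test in each line, these shares were 30.4%, 10.8% and 5.4%. Letters for E2F (TTTNNCGC), CCAAT and SP1 (GGGCGG) were also searched and occur in 6.89%, 34.6% and 45% of all windows and in 10.4%, 35.3% and 69% of those of the tested genes. METTL3 and METTL14 held 1 CCAAT match each, and METTL3, METTL14 and FTO had no SP1 or E2F match. Among the other windows, that of YTHDC1 held 2 E2F matches and 1 window of YTHDF2 held 1. SP1 letters occurred in windows of YTHDF1, YTHDF2, YTHDC1, YTHDC2, WTAP and ALKBH5, and CCAAT in windows of YTHDF1, YTHDF2, YTHDC2 and WTAP. A match is a string of letters, and binding was not measured.

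The 10 genes lie on 9 chromosomes of hg38, and METTL14 and YTHDC1 share chromosome 4. METTL3 spans chr14:21498133-21511342 on the minus strand, WTAP chr6:159725585-159756319 on the plus strand, FTO chr16:53701692-54158512 on the plus strand and METTL14 chr4:118685392-118715433 on the plus strand (GENCODE release 44). The annotated 3'UTRs differ widely. The longest 3'UTR of METTL3 has 120 nt, that of WTAP 1042 nt, that of METTL14 5128 nt and that of FTO 10026 nt, against a median of 1535 nt over 9587 protein-coding genes tested in all lines. METTL3, WTAP and FTO, lower in every siI1 library, thus range from a short to a very long 3'UTR. YTHDF2 shares 24.7% of its exonic bases with an antisense gene, ALKBH5 9.91%, WTAP 6.81% with SOD2 and METTL3 6.62% with TOX4, and reads in these stretches cannot be assigned with certainty because the strand setting of the counting was not given.

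In siC libraries the order of levels within a line was largely the same in all 4 lines. ALKBH5 was highest, at a mean of 40.2 to 60.7 FPKM, above 92.7% to 96.6% of the protein-coding genes listed above 0 in the same library. YTHDF2 came next, at means of 24.3 to 35.3 FPKM, followed in changing order by YTHDF1, YTHDF3 and WTAP. The siC libraries of YTHDF1 and YTHDF3 overlapped in ES2. METTL3 and YTHDC2 lay in the middle, at means of 5.72 to 12.7 and 5.43 to 10.1 FPKM, and their libraries overlapped in A549 and PANC1. YTHDC1, METTL14 and FTO came last, with FTO at means of 1.35 to 2.93 FPKM, above 30.6% to 39.2% of protein-coding genes. The listed lengths behind these levels count all annotated exons (21379 bases for FTO against 11573 in its principal transcript, 5894 against 1980 for METTL3), so levels of genes with many long isoforms are understated.

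**Figure D1:**
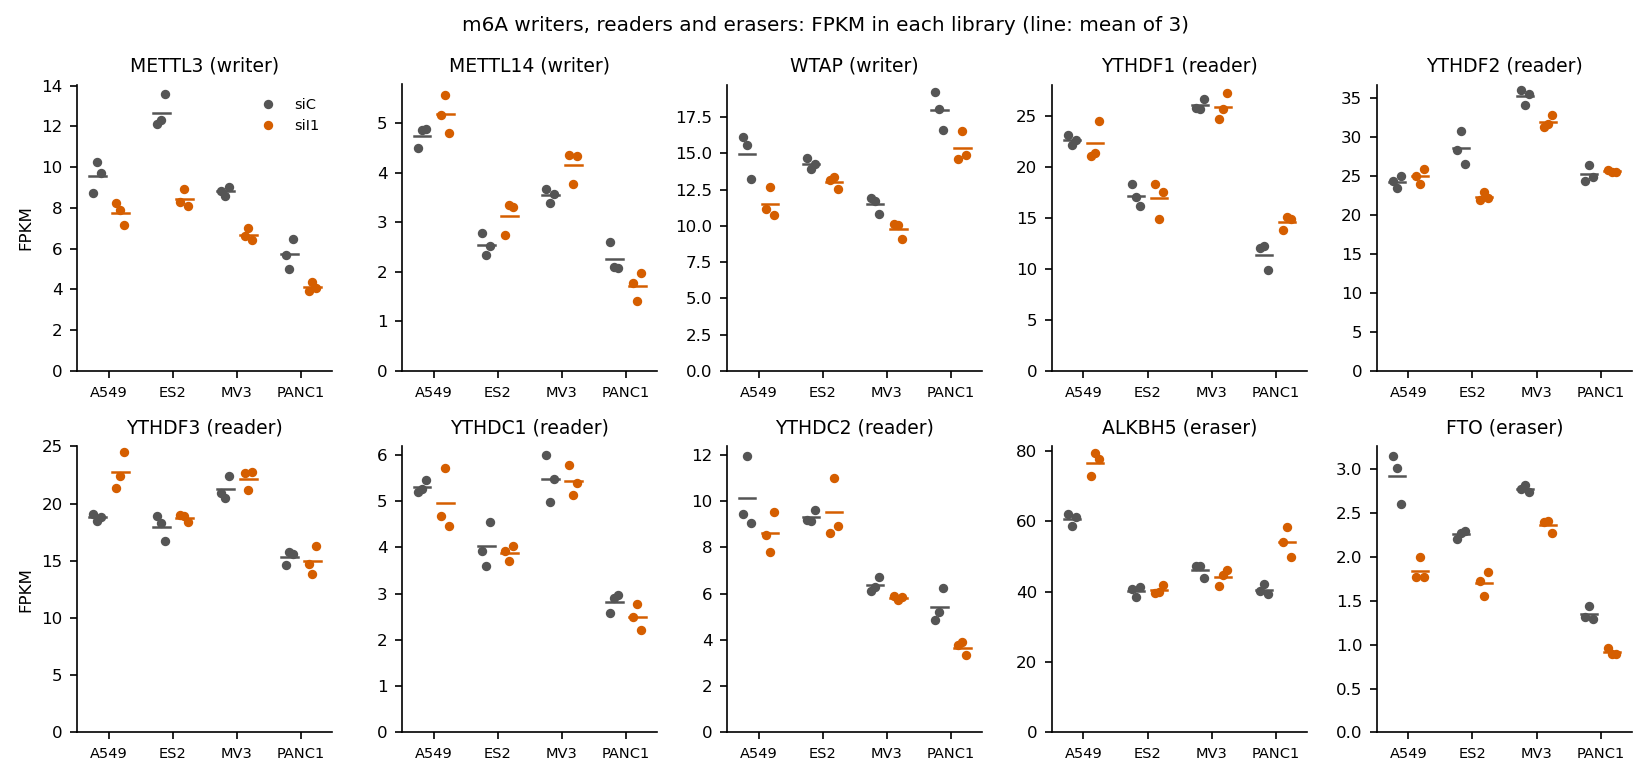
FPKM (y axis, linear, from 0) of each of the 10 genes in every library of the 4 lines (x axis), with siC in grey, siI1 in orange and short lines for the mean of 3 libraries. METTL3, WTAP and FTO have every siI1 point below every siC point in all 4 lines, while ALKBH5 has higher siI1 points in A549 and PANC1.

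METTL3 was lower after knockdown of IGF2BP1 in all 4 lines, by 19.0% to 33.5% of its mean. In A549 the siC libraries had 8.74, 10.2 and 9.71 FPKM and the siI1 libraries 8.23, 7.87 and 7.13 FPKM. In ES2 these were 12.1, 12.3 and 13.6 against 8.28, 8.92 and 8.07 FPKM. No siI1 library reached the lowest siC library in either line. The MV3 libraries had 8.85, 8.59 and 9.01 FPKM in siC and 6.63, 7.01 and 6.43 FPKM in siI1. PANC1 gave 5.68, 5.00 and 6.47 FPKM against 3.95, 4.34 and 4.09 FPKM, again without overlap. Fold changes are given for log2(FPKM + 0.5), and that of ES2 was -0.56 ± 0.07 (SE, 3 against 3 libraries), with an adjusted p of 0.0027 in limma. It was -0.37 ± 0.05 in MV3 (adjusted p = 0.00152) and -0.42 ± 0.10 in PANC1 (adjusted p = 0.0297). In A549, where the gene rested on 149 to 251 reads per library, it was -0.29 ± 0.09 and missed the threshold of 0.05 (adjusted p = 0.099). The ES2 and MV3 calls held when any one library was left out. The PANC1 call was kept only without siC replicate 2 and was lost without siC replicate 1 (adjusted p = 0.0896), siC replicate 3 (0.0709), siI1 replicate 1 (0.0923), siI1 replicate 2 (0.0617) or siI1 replicate 3 (0.0785). Called lower in 3 lines, METTL3 belonged to 7.19% of the 12816 genes tested in all lines that were called lower in at least 3. Its mean log2 fold change over the lines was -0.41 ± 0.04 (SE), with an adjusted p of 5.29e-08 in the joint limma fit of 24 libraries. The 4 changes were not told apart by the test of their difference (adjusted p = 0.207).

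METTL14, whose protein forms the stable pair with METTL3, did not pass in any line. The A549 libraries had 4.50, 4.87 and 4.89 FPKM in siC and 5.16, 5.58 and 4.81 FPKM in siI1, and the groups overlapped. ES2 gave 2.79, 2.33 and 2.53 FPKM against 2.74, 3.36 and 3.31 FPKM. MV3 gave 3.68, 3.38 and 3.57 FPKM against 4.37, 3.77 and 4.33 FPKM, so that every siI1 library lay above the siC libraries. In PANC1 the order was the opposite, with 2.61, 2.09 and 2.08 FPKM in siC and 1.77, 1.41 and 1.97 FPKM in siI1. For A549, ES2, MV3 and PANC1 the log2 fold changes were 0.11 ± 0.10, 0.25 ± 0.11, 0.20 ± 0.07 and -0.32 ± 0.15, with limma adjusted p of 0.514, 0.164, 0.0734 and 0.166. Without MV3 siI1 replicate 2 the value in MV3 was 0.26 and passed (adjusted p = 0.0357). The difference between the lines itself passed (adjusted p = 0.012), and the mean over the lines, 0.06 ± 0.05, did not (adjusted p = 0.353).

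The ratio of METTL14 to METTL3 FPKM in a library does not depend on how the library was scaled, but its size depends on the listed lengths. The log2 ratio in A549 was -0.96, -1.07 and -0.99 in siC and -0.67, -0.50 and -0.57 in siI1. In ES2 it was -2.12, -2.40 and -2.43 against -1.59, -1.41 and -1.28, and in MV3 it was -1.27, -1.35 and -1.34 against -0.60, -0.90 and -0.57. These 3 lines showed no overlap, and the mean ratio went from 0.498 to 0.669 in A549, from 0.201 to 0.371 in ES2 and from 0.402 to 0.620 in MV3. In PANC1 both genes were lower and the ratio overlapped, with -1.12, -1.26 and -1.63 in siC and -1.16, -1.63 and -1.05 in siI1. The balance of the 2 writer transcripts thus moved toward METTL14 in the 3 lines harvested at 72 h.

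WTAP, the regulatory subunit, was lower in every siI1 library than in every siC library of the same line. Its siC and siI1 values were 16.1, 15.6 and 13.2 against 11.1, 12.7 and 10.7 FPKM in A549. In ES2 they were 14.7, 13.9 and 14.3 against 13.1, 13.4 and 12.5 FPKM. The drop was largest in A549, where the mean fell by 23.0%, and smallest in ES2, where it fell by 8.89%. MV3 had 11.96, 11.7 and 10.8 FPKM in siC and 10.1, 10.0 and 9.10 FPKM in siI1. PANC1 had 19.3, 18.1 and 16.6 FPKM in siC and 14.6, 16.5 and 14.9 FPKM in siI1. Only the MV3 change passed, with a log2 fold change of -0.23 ± 0.06 (adjusted p = 0.0269 in limma). That call was lost without siC replicate 1 (adjusted p = 0.0832), siC replicate 2 (0.0865), siI1 replicate 2 (0.0521) or siI1 replicate 3 (0.0709). The values in A549, ES2 and PANC1 were -0.36 ± 0.10, -0.13 ± 0.05 and -0.22 ± 0.08, with adjusted p of 0.0684, 0.119 and 0.0886. Over all lines the mean was -0.23 ± 0.04 and passed (adjusted p = 4.1e-05), and a difference between the lines was not shown (adjusted p = 0.319). The log2 ratio of WTAP to METTL3 rose without overlap in ES2, from a mean of 0.18 to 0.63, in MV3, from 0.38 to 0.54, and in PANC1, from 1.66 to 1.90, and overlapped in A549.

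Among the cytoplasmic readers, YTHDF2, which brings the deadenylase complex to methylated mRNA, was lower in 2 lines. In ES2 the siC libraries had 28.4, 30.8 and 26.6 FPKM and the siI1 libraries 21.9, 23.0 and 22.2 FPKM. In MV3 they had 36.1, 34.2 and 35.6 FPKM against 31.3, 31.8 and 32.8 FPKM. Neither pair of groups overlapped. The log2 fold change was -0.35 ± 0.06 in ES2 (adjusted p = 0.0105 in limma), a call that held without any one library. In MV3 it was -0.14 ± 0.03 (adjusted p = 0.0207), a call lost without siC replicate 1 (adjusted p = 0.0672), siC replicate 3 (0.0515), siI1 replicate 1 (0.0602) or siI1 replicate 2 (0.0659). In A549 the siC and siI1 libraries overlapped at 23.4 to 25.1 and 23.99 to 26.0 FPKM, and in PANC1 at 24.4 to 26.5 and 25.5 to 25.8 FPKM. The log2 fold changes there were 0.04, with a 95% interval from -0.09 to 0.17, and 0.02, with an interval from -0.10 to 0.14. The lines differed (adjusted p = 0.000406 for the difference), and the mean over lines was -0.11 ± 0.02 (adjusted p = 0.00104).

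YTHDF1, known for promoting translation of methylated mRNA, passed as higher in PANC1, where the siC libraries had 12.03, 12.3 and 9.88 FPKM and the siI1 libraries 13.9, 15.2 and 14.9 FPKM. The groups did not overlap, and the log2 fold change was 0.35 ± 0.09 (adjusted p = 0.04 in limma). The call was kept only without siC replicate 2 and was lost without siC replicate 1 (adjusted p = 0.0755), siC replicate 3 (0.056), siI1 replicate 1 (0.0739), siI1 replicate 2 (0.113) or siI1 replicate 3 (0.104). In A549, ES2 and MV3 the log2 fold changes were -0.02, -0.02 and -0.01, and the widest of their 95% intervals, in ES2, ran from -0.24 to 0.20. The difference between lines passed (adjusted p = 0.0249), but was lost without PANC1 siC replicate 3 (0.0974), siI1 replicate 2 (0.0726) or siI1 replicate 3 (0.0614). The mean over lines was 0.07 ± 0.04 and did not pass (adjusted p = 0.146).

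YTHDF3, the third of these paralogs, was higher in A549, with 19.1, 18.5 and 18.8 FPKM in siC and 21.3, 22.4 and 24.5 FPKM in siI1. No siI1 library overlapped the siC libraries, and the log2 fold change was 0.27 ± 0.07 (adjusted p = 0.0448 in limma). This call was lost whichever library was left out, with adjusted p from 0.052 without siI1 replicate 1 to 0.113 without siC replicate 1. The groups overlapped in ES2, MV3 and PANC1, where the log2 fold changes were 0.06, 0.06 and -0.04. The mean over lines was 0.09 ± 0.03 (adjusted p = 0.022) and the difference between lines had an adjusted p of 0.0388, which was lost without any of 10 single libraries, at 0.0504 to 0.118. These were all A549 libraries but siI1 replicate 1, all PANC1 libraries but siC replicate 1 and siI1 replicate 3, and ES2 siI1 replicate 3.

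Within the YTHDF family the share of YTHDF2 in the summed FPKM of the 3 paralogs went from 44.9% ± 1.67 (SD, n = 3) in siC to 38.5% ± 1.76 in siI1 in ES2, and from 42.7% ± 0.79 to 39.9% ± 0.38 in MV3. The shares in A549 were 36.9% ± 0.64 and 35.7% ± 1.29, and those in PANC1 48.6% ± 0.87 and 46.4% ± 1.22. The log2 ratio of YTHDF2 to YTHDF1 fell without overlap in ES2, from a mean of 0.73 to 0.40, in MV3, from 0.43 to 0.30, and in PANC1, from 1.15 to 0.81. In A549 this ratio overlapped, at means of 0.10 and 0.16. In PANC1 the lower ratio came with a higher YTHDF1 value and in ES2 and MV3 with a lower YTHDF2 value.

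The nuclear reader YTHDC1 had log2 fold changes of -0.15 to -0.01. Its groups overlapped in every line, with siC means of 5.30, 4.02, 5.48 and 2.82 FPKM and siI1 means of 4.95, 3.89, 5.43 and 2.49 FPKM in A549, ES2, MV3 and PANC1. None of the 4 changes passed (limma adjusted p of 0.364 to 0.929), and the mean over the lines was -0.07 ± 0.05 (adjusted p = 0.215). YTHDC2 was lower in PANC1, where the siC libraries had 4.85, 5.203 and 6.22 FPKM and the siI1 libraries 3.76, 3.89 and 3.33 FPKM. The groups were well apart, and the log2 fold change was -0.51 ± 0.11 (adjusted p = 0.0205), a call lost without siI1 replicate 1 (adjusted p = 0.0561) or siI1 replicate 3 (0.0618). In MV3 the siI1 libraries at 5.71 to 5.88 FPKM lay below the siC libraries at 6.11 to 6.72 FPKM, with a log2 fold change of -0.12 ± 0.05 that did not pass (adjusted p = 0.104). The A549 and ES2 groups overlapped, with log2 fold changes of -0.22 ± 0.13 and 0.02 ± 0.10. The mean over lines was -0.21 ± 0.05 (adjusted p = 0.00304). The difference between lines had an adjusted p of 0.037, which was lost without any of 10 single libraries, at 0.0503 to 0.109. These were ES2 siC replicates 1 and 2 and siI1 replicate 2, MV3 siC replicates 1 and 2 and siI1 replicates 1 and 3, and PANC1 siC replicate 3 and siI1 replicates 1 and 3. The log2 ratio of YTHDC2 to YTHDC1 overlapped in A549, ES2 and MV3 and went from a mean of 0.94 to 0.56 without overlap in PANC1.

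Of the erasers, ALKBH5 was higher after knockdown in A549, with 62.0, 58.8 and 61.2 FPKM in siC and 73.0, 79.3 and 77.7 FPKM in siI1, and in PANC1, with 40.1, 42.2 and 39.2 FPKM in siC and 54.2, 58.4 and 49.8 FPKM in siI1. The siI1 libraries lay above all siC libraries in both lines. The log2 fold changes were 0.33 ± 0.05 (adjusted p = 0.00946 in limma) and 0.41 ± 0.07 (adjusted p = 0.00919), and both calls held when any one library was left out. In ES2 the groups overlapped at 38.5 to 41.4 and 39.5 to 41.9 FPKM, and in MV3 at 43.9 to 47.3 and 41.7 to 46.2 FPKM. Their 95% intervals, -0.11 to 0.12 in ES2 and -0.18 to 0.06 in MV3, did not reach the change of the other lines. ALKBH5 had the clearest difference between lines of the 10 genes (adjusted p = 0.000111), and its mean over the lines was 0.17 ± 0.03 (adjusted p = 3.21e-05).

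FTO was lower in every siI1 library in all 4 lines. The values were 3.15, 3.02 and 2.60 FPKM in siC and 1.77, 1.995 and 1.77 FPKM in siI1 of A549, where the mean fell by 36.9%. ES2 had 2.21, 2.27 and 2.30 FPKM against 1.73, 1.55 and 1.83 FPKM, a mean that fell by 24.6%. The separation was narrower in MV3, with 2.78, 2.83 and 2.74 FPKM against 2.40, 2.42 and 2.28 FPKM, a mean that fell by 15.0%. In PANC1 the libraries had 1.31, 1.45 and 1.30 FPKM against 0.958, 0.894 and 0.891 FPKM, and the mean fell by 32.4%. Of the 4 lines MV3 passed, at -0.20 ± 0.06 (adjusted p = 0.0481 in limma). The MV3 call was lost whichever library was left out, with adjusted p from 0.0747 without siC replicate 3 to 0.134 without siI1 replicate 3. The changes in A549, ES2 and PANC1 were -0.54 ± 0.14, -0.33 ± 0.11 and -0.39 ± 0.14, with adjusted p of 0.0508, 0.073 and 0.0981. At such low FPKM a fold change depends on the pseudocount. With 0.1 in place of 0.5 the values were -0.63 in A549 (adjusted p = 0.0504), -0.39 in ES2 (0.0695) and -0.52 in PANC1 (0.0879), and these calls were still missed. When limma voom was run on the reads recovered from the FPKM, FTO passed in all 4 lines, with log2 fold changes of -0.65 in A549 (adjusted p = 1.63e-06), -0.41 in ES2 (0.00072), -0.56 in PANC1 (0.00118) and -0.23 in MV3 (0.000721). The mean over lines was -0.36 ± 0.04 (adjusted p = 7.62e-07). The test of a difference between lines gave an adjusted p of 0.114, which was 0.0484 without A549 siC replicate 3 and 0.0166 with voom.

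The log2 ratio of FTO to ALKBH5 was lower in siI1 than in siC in every line without overlap. It went from -4.30, -4.28 and -4.56 to -5.36, -5.31 and -5.46 in A549 and from -4.93, -4.87 and -4.92 to -5.82, -6.03 and -5.80 in PANC1. In these lines the mean ratio of FTO to ALKBH5 FPKM changed from 0.0481 to 0.0241 and from 0.0334 to 0.0169. The size of this ratio depends on the listed lengths, while its change between groups does not. In ES2 and MV3 the mean log2 ratio went from -4.15 to -4.57 and from -4.05 to -4.22.

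**Figure D2:**
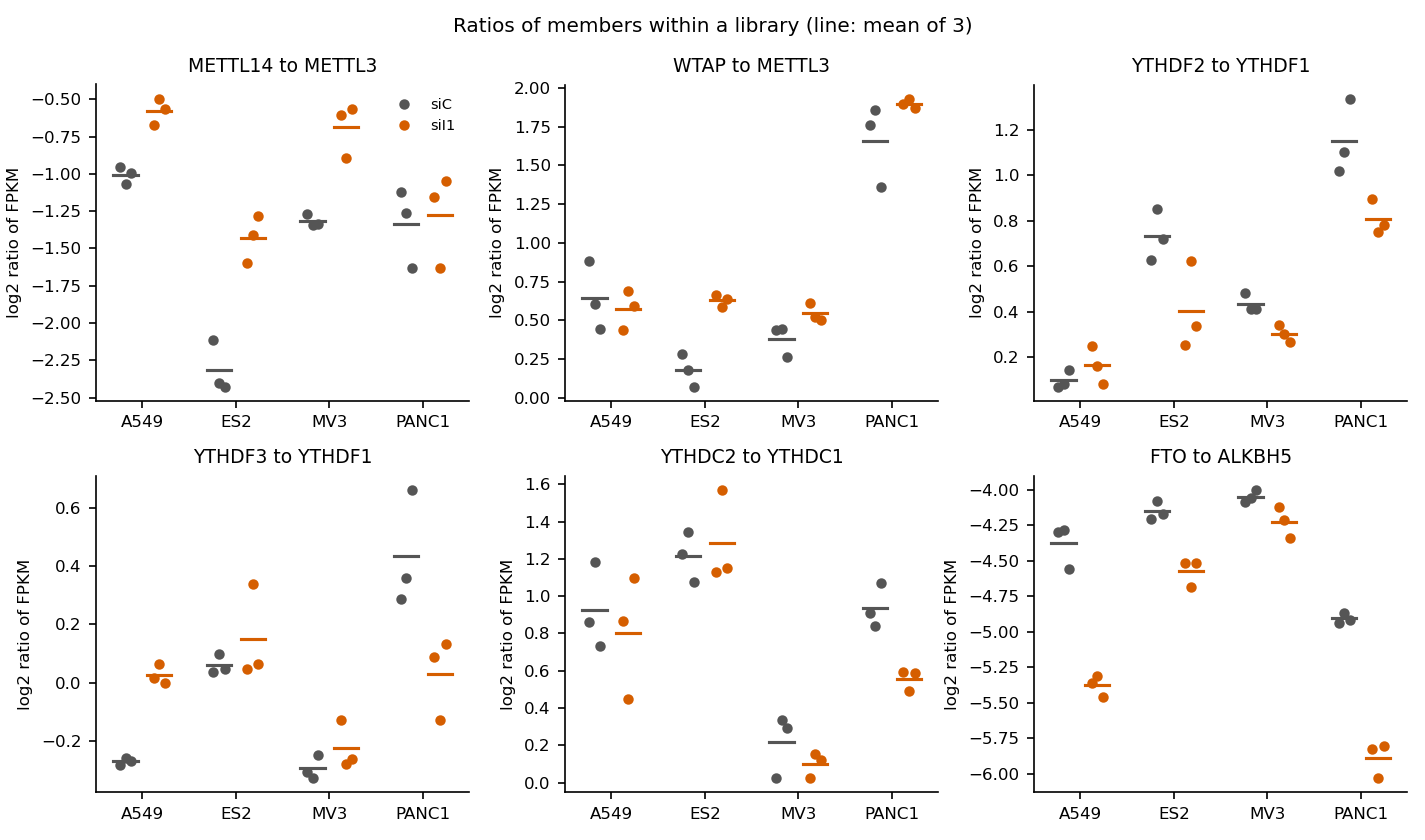
Log2 ratio of FPKM (y axis, differing scales) between pairs of the 10 genes in each library of the 4 lines (x axis), with siC in grey, siI1 in orange and short lines for the mean of 3. METTL14 to METTL3 is higher in siI1 in A549, ES2 and MV3 and overlaps in PANC1, and FTO to ALKBH5 is lower in siI1 in all 4 lines.

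Counted by line, 0 of the 10 genes were called lower and 2 higher in A549, against 7.83% and 5.93% of the 18411 genes tested. At an unadjusted p under 0.05 in limma 3 lay lower there, and voom called the 3 genes METTL3, WTAP and FTO lower. In ES2, 2 were lower and 0 higher, against 13% and 10.5% of 16920 genes, and 0 were higher at an unadjusted p under 0.05 in limma or with voom. In MV3, 4 were lower and 0 higher, against 19.5% and 16.3% of 16380 genes, and 1 was higher at an unadjusted p under 0.05 in limma and with voom. In PANC1, 2 were lower and 2 higher, against 13.4% and 11.3% of 15846 genes. Beside these shares, counts of 0 to 4 of 10 do not mark the 10 genes as a group that changed more often than other genes. Averaged over the lines 5 of the 10 passed as lower and 2 as higher, against 28.1% and 20.5% of 12816 genes, and the change of 6 differed between lines, against 45% of all genes. The median of the 10 mean changes was -0.09, against -0.03 over all genes. For METTL3, WTAP and FTO every siI1 library lay below every siC library in all 4 lines, an order that 5.33% of all genes showed.

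**Figure D3:**
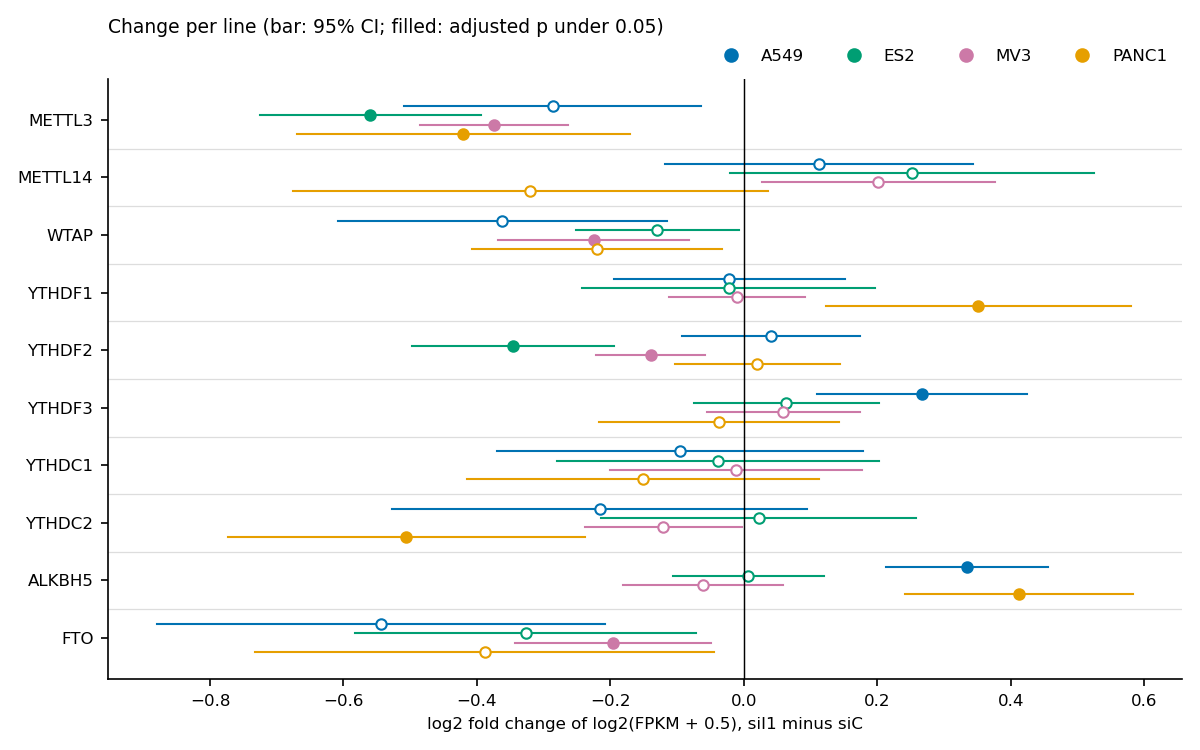
Log2 fold change, siI1 minus siC, on the log2(FPKM + 0.5) scale (x axis) for the 10 genes (y axis) in each line, with 95% confidence intervals and filled points for an adjusted p under 0.05. METTL3, WTAP and FTO lie below 0 in all lines, and ALKBH5 lies above 0 in A549 and PANC1, where in PANC1 its direction and that of YTHDF1 flip when libraries are rescaled to 1 sum.

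The libraries of PANC1 differed in composition between the groups. The summed FPKM was 526337 to 756438 in siC and 977547 to 1191707 in siI1, and 1 short non-coding RNA, RN7SL2 of the signal recognition particle, took 50.1% to 56.2% and 62.0% to 64.6% of it. RN7SL2 also took the largest part in the other lines. Its share rose without overlap in MV3, from 43.4% to 44.15% in siC to 47.3% to 48.5% in siI1. In ES2 the shares overlapped, at 33.1% to 36.4% and 36.0% to 37.1%, as in A549, at 30.5% to 33.6% and 31.1% to 32.2%. With the libraries of a line rescaled to 1 common sum, the median change of all genes became -0.68 (log2) in PANC1 and lay between -0.04 and 0.04 in the other lines. Under it ALKBH5 and YTHDF1 in PANC1 were at -0.34 and -0.38, below 0 but above that median by 0.35 and 0.31. METTL3 and YTHDC2 remained below the median, by 0.43 and 0.51. The part of RN7SL2 in the values as deposited was not tested.

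The paralog IGF2BP2 lay at siC means of 10.1, 29.1, 37.3 and 17.3 FPKM and siI1 means of 10.9, 32.4, 40.0 and 20.4 FPKM in A549, ES2, MV3 and PANC1, and its mean log2 fold change over lines was 0.15 ± 0.04 (adjusted p = 0.00188 in limma). PANC1 was the line in which it passed alone (0.23 ± 0.06, adjusted p = 0.0302). IGF2BP3 was higher in ES2, at 0.27 ± 0.07 (adjusted p = 0.0419), and lower in MV3, at -0.14 ± 0.04 (adjusted p = 0.037), and the difference between lines passed (adjusted p = 0.00256).

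A further 31 genes were listed beside the 10, and 30 of them were testable in all lines. They are partners of the writers or readers, other methyltransferases and cofactors, other proposed readers and genes of methyl donor supply. By line 4 of 31 were called lower and 2 higher in A549, 7 and 0 of 30 in ES2, 14 and 2 of 30 in MV3, and 11 and 2 of 30 in PANC1. The shares over all genes tested, lower and higher, were 7.83% and 5.93% in A549, 13% and 10.5% in ES2, 19.5% and 16.3% in MV3, and 13.4% and 11.3% in PANC1. In ES2, 0 of them were higher at an unadjusted p under 0.05 in limma and 1 with voom. Averaged over the lines 17 of 30 passed as lower and 2 as higher, against 28.1% and 20.5% of all genes, with a median of -0.12 against -0.03 over all genes. The change of 19 of the 30 differed between lines, against 45% of all genes. None was called in the same direction in all 4 lines. Of the 5 partners in the writer complex, 2 passed on average as lower. RBM15, which brings the complex to its RNA sites, had a mean of -0.24 ± 0.03 (adjusted p = 5.16e-06), was called in A549, MV3 and PANC1, and had no overlap between groups in any line. ZC3H13, a scaffold that helps to keep the complex in the nucleus, had -0.15 ± 0.05 (adjusted p = 0.00887) and was called in no single line. VIRMA, the largest subunit, had -0.01 ± 0.03 (adjusted p = 0.837).

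Among the 5 other methyltransferases and cofactors, METTL16, which methylates the MAT2A transcript and U6 RNA, had a mean of -0.19 ± 0.03 (adjusted p = 3.45e-05), and ZCCHC4, which methylates ribosomal RNA, had -0.17 ± 0.07 (adjusted p = 0.0344). PCIF1, which methylates adenosine next to the cap, was higher on average, at 0.17 ± 0.04 (adjusted p = 0.00476). Its values were 0.20 in MV3 and 0.62 in PANC1, but -0.08 in both A549 and ES2. The difference between lines passed in the joint limma F test (adjusted p = 0.000448). MAT2A, which makes the methyl donor S-adenosylmethionine, had a mean of -0.28 ± 0.04 (adjusted p = 1.27e-05) and was called lower in ES2, MV3 and PANC1.

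Of 10 other proteins proposed as readers, 9 passed on average as lower, against 28.1% of all genes, and 9 differed between lines, against 45% of all genes. HNRNPA2B1, a nuclear RNA-binding protein, had the lowest mean, -0.34 ± 0.03 (adjusted p = 6.72e-09), from -0.41 in ES2, -0.36 in MV3 and -0.62 in PANC1, against 0.02 in A549. FXR2 and ELAVL1 followed at -0.23 and -0.17. EIF3A, LRPPRC, PRRC2A and FXR1 lay between -0.16 and -0.15, HNRNPC was at -0.10 and RBMX at -0.09. FMR1 did not pass, at -0.03 (adjusted p = 0.746). Of the 7 testable partners of the readers, CNOT1, the scaffold of the deadenylase complex that YTHDF2 binds, was at -0.26 ± 0.03 (adjusted p = 6.51e-08). UPF1, a helicase of mRNA decay, was at -0.21 ± 0.04 (adjusted p = 0.000103), and SRSF3, a splicing factor that YTHDC1 binds, at -0.20 ± 0.03 (adjusted p = 2.1e-06). RIDA, the adaptor between YTHDF2 and RNase P/MRP, was higher on average, at 0.18 ± 0.05 (adjusted p = 0.00378). Its values were 0.47 in A549, 0.20 in MV3 and 0.24 in PANC1, but -0.17 in ES2. CNOT1 was at 0.01 in ES2 and UPF1 at 0.07 in PANC1. The change of 5 of these 7 partners differed between lines in the joint limma F test, against 45% of all genes.

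**Figure D4:**
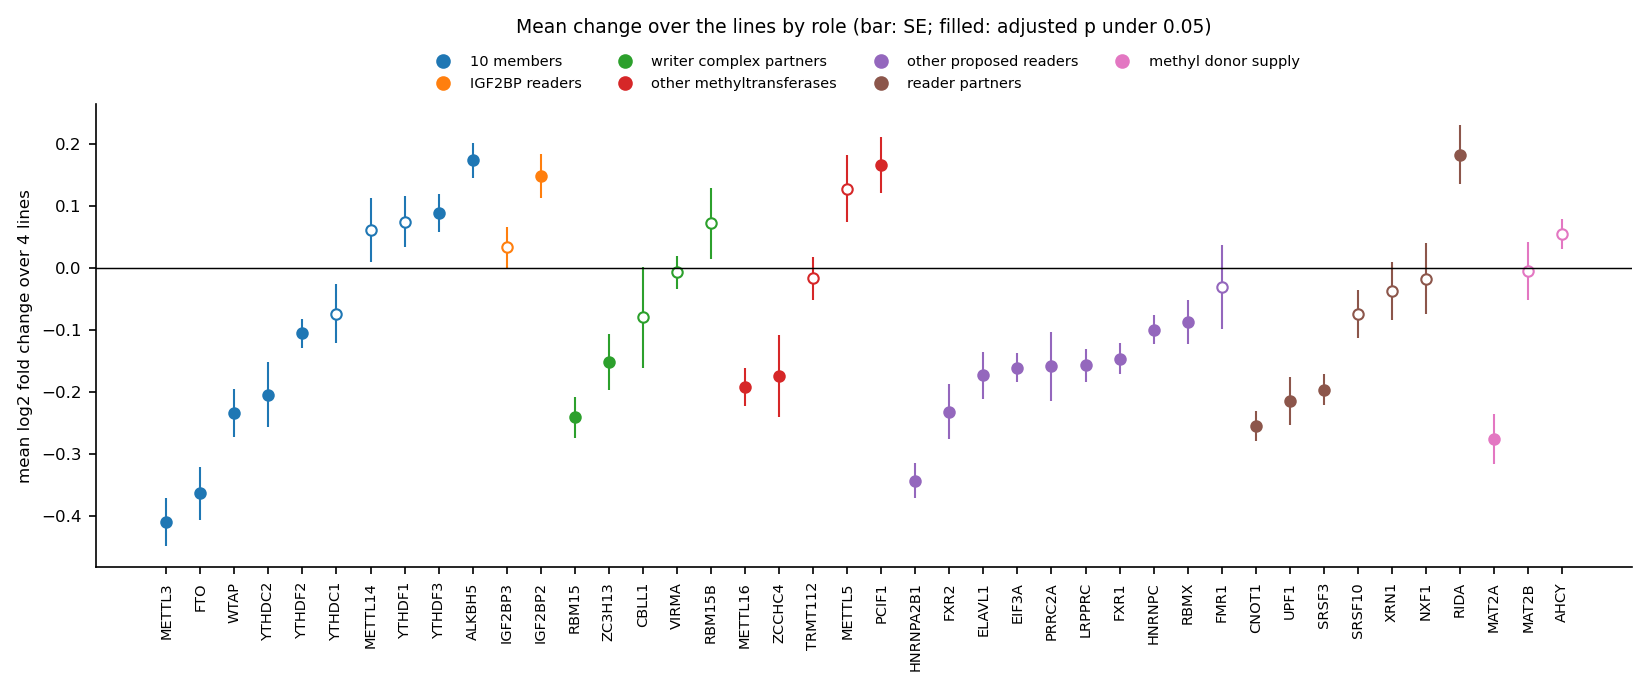
Mean log2 fold change over the 4 lines (y axis, with SE) for the 10 genes, IGF2BP2, IGF2BP3 and 30 further genes of the pathway (x axis, ordered by value within each role), with filled points for an adjusted p under 0.05 in the joint limma fit. METTL3 at -0.41 and FTO at -0.36 are lowest, and ALKBH5 at 0.17, PCIF1 at 0.17 and RIDA at 0.18 are highest. ALKBH5 falls to -0.01 with libraries rescaled to 1 sum, and PCIF1, RIDA and IGF2BP2 were not examined under this rescaling.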

How the data were processed

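Per the labels and methods, the authors trimmed reads with cutadapt 1.14, aligned them to hg38 with HISAT2 2.1.0, handled alignments with SAMtools 1.5, counted reads per gene with featureCounts 1.5.3 and tested each line with edgeR 3.30.3; libraries were depleted of ribosomal RNA and come from 3 biological replicates. The authors deposited 1 table per line with values that are FPKM. The unit is not named in the header: value times listed length was a whole multiple of 1 step per library for 100% of values (tolerance 0.01). The authors' log2 fold changes, p-values and FDR were not used.

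FPKM were analysed as log2(FPKM + 0.5). Per line, limma was run on genes whose mean FPKM was 0.5 or more (limma 3.58.1 in R 4.3.3, trend, two-sided, Benjamini-Hochberg over all genes of the line, threshold 0.05). All 10 members passed the filter in each line. Limma replaced the count test because the tables hold FPKM. A joint fit over 24 libraries gave the mean change and an F test of the difference between lines over 12816 genes. Ratios within a library were described without a test. All 10 members are named. Of the other pathway genes, those whose mean change passed are named, with VIRMA and FMR1 added after their values were seen. Members and lists were chosen with earlier results of these data known. Replicate pairs differed beyond sampling noise (chi-square per gene of 1.73 to 17.7 in 24 pairs). Some of the marker genes are not reported here. Scripts were tested on simulated data. Coordinates are from GENCODE release 44, promoters from RefSeq. Figures used matplotlib 3.10.9. Alternatives are given in the closing section.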

Additional observations from a re-analysis of the deposited data

Results flagged for a closer look

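For 6 of the 10 genes the effect of the knockdown differed between the 4 lines by the F test of the joint limma fit, a share set against 45% of all genes. ALKBH5 had the smallest adjusted p (0.000111), with higher values in A549 and PANC1 and log2 fold changes of 0.01 and -0.06 in ES2 and MV3. YTHDF2 followed (0.000406), lower in ES2 and MV3, with 0.04 and 0.02 in A549 and PANC1. METTL14 differed (0.012) with values of 0.11, 0.25 and 0.20 in A549, ES2 and MV3 and -0.32 in PANC1. YTHDF1 (0.0249) passed in PANC1 only, at 0.35. YTHDC2 (0.037) had -0.51 in PANC1 and 0.02 in ES2. YTHDF3 (0.0388) had 0.27 in A549 and -0.04 in PANC1. The differences of ALKBH5, YTHDF2 and METTL14 held in all 24 fits that left out 1 library, those of YTHDF1, YTHDF3 and YTHDC2 in 21, 14 and 14 of them. PANC1 also differs from the other lines in harvest time, which cannot be told apart from the line.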

How the results depend on the processing

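Another pseudocount (0.1 or 1) changed no call. Without a filter the counts were 1 higher in A549, 2 lower in MV3, and 1 lower and 1 higher in PANC1, and with a filter of 1 FPKM 1 was lower in A549 (FTO). Voom on the recovered reads gave 3 lower in A549, 1 higher in MV3 (METTL14) and 4 lower in PANC1. By the F test, voom lost the difference between lines of YTHDF3 (adjusted p = 0.0577), and the fit without a filter that of YTHDC2 (0.0517). With libraries rescaled to the same sum, 1 was lower in MV3, 8 lower and 0 higher in PANC1, 10 differed between lines and 0 were higher on average. YTHDF1 (limma adjusted p = 0.0475) and YTHDC1 (-0.23, adjusted p = 0.00617) then also passed as lower on average. Under this rescaling YTHDF1, YTHDF2 and ALKBH5 in PANC1 turned to -0.38, -0.72 and -0.34, and the mean changes of YTHDF1, YTHDF3 and ALKBH5 to -0.10, -0.089 and -0.0077. Relative to the shifted median of all genes, -0.68 in PANC1, the means were 0.07, 0.08 and 0.16. Over all genes in PANC1 the rescaling called 8870 lower and 96 higher. The mean changes of IGF2BP2, IGF2BP3 and the further genes of the pathway were not examined under it. Why the remaining counts moved was not tested.

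Replicate numbers did not pair the samples: correlations of same-numbered libraries were -0.06 to 0.07 in 12 pairs, 0 were above 0.1 and 3 were the best of their row. With the replicate block 0 were called higher in A549, 2 lower in MV3, and 0 lower and 1 higher in PANC1, and the other counts stayed within 1.5 times. The calls lost were those of YTHDF3 (adjusted p = 0.119) and ALKBH5 (0.0618) in A549, YTHDF2 (0.0578) and FTO (0.113) in MV3, and METTL3 (0.0691), YTHDF1 (0.0703) and YTHDC2 (0.0628) in PANC1, and the differences between lines of YTHDC2 (0.138) and YTHDF3 (0.0567).

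Leaving out 1 library leaves fewer samples. It gave 0 lower and 1 higher in A549, 2 lower and 0 higher in ES2, 1 to 2 lower and 0 to 1 higher in MV3, and 0 to 2 lower and 1 to 2 higher in PANC1. Over all lines it gave 3 to 6 that differed, 5 lower on average and 2 to 3 higher, the third being YTHDF1 (0.10) without ES2 siI1 replicate 2. METTL3, FTO, WTAP, YTHDC2 and YTHDF2 kept their mean call in each of the 31 alternatives, and ALKBH5 and YTHDF3 in 30. The fewest reads of a member in a library were 58, for METTL14 in PANC1.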
